A study of Mus musculus with 8 samples.

Results

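The IL-1 family and inflammasome genes are described here in tumor-associated macrophages (TAMs) of thiostrepton-treated mice. The 10 genes, Il1a, Il1b, Il1rn, Il18, Il18bp, Nlrp3, Pycard, Casp1, Casp4 and Gsdmd, were chosen by name from the 23413 gene symbols of the deposited count table, and all 10 passed the filter on low counts in every comparison. TAMs were sorted as CD45+F4/80+CD11b+Gr-1− cells from B16F10 melanoma tumors, a transplanted mouse skin cancer line, in male C57BL/6 mice aged 8 to 10 weeks. Thiostrepton, a thiopeptide antibiotic, was injected intraperitoneally (I.P.) in 4 mice and next to the tumor under the skin (paratumor S.C., labelled IS) in 2 mice, and 2 control mice received the vehicle DMSO. Injections followed engraftment by 6 and 12 days and TAMs were sorted on day 18, with 1 RNA-seq library per mouse. The S.C. dose was 20 mg/kg, which the study describes as lower than its I.P. doses, so dose and route cannot be told apart between the S.C. and I.P. groups. Which I.P. dose these mice received and by which route the DMSO mice were dosed are not given in the sources used here.

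IL-1α and IL-1β are cytokines that signal through the same receptor, and IL-18 is a related cytokine with a receptor of its own. The receptor antagonist encoded by Il1rn occupies the IL-1 receptor without signaling, and the secreted protein encoded by Il18bp binds IL-18. IL-1β and IL-18 are made as precursors that are cut by caspase-1 (Casp1), which is activated in the inflammasome, a complex of a sensor such as NLRP3 and the adaptor ASC (Pycard). Caspase-11, encoded by Casp4 in the mouse, senses bacterial lipopolysaccharide inside the cell, and both caspases cut gasdermin D (Gsdmd), whose fragment forms pores in the cell membrane. In macrophages Il1b and Nlrp3 are known to be induced by inflammatory signals before the complex assembles, a step called priming. RNA counts bear on the transcripts only, not on the cutting or release of these proteins.

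Between 14127506 and 17577466 reads were counted on genes per mouse, and levels are given as CPM, counts relative to library size, with the TMM method correcting for library composition. A floor of 3 counts corresponded to 0.169 to 0.219 CPM. The 10 macrophage markers summed to between 12629 and 20006 CPM, and none was at 0 in any library. The 11 neutrophil markers that were found, of 12 listed, summed to 186 and 194 CPM in the DMSO group, 133 to 186 CPM in the I.P. group and 294 and 527 CPM in the S.C. group. The 6 monocyte markers summed to 73.8 and 117, 20.9 to 325, and 116 and 199 CPM, and the 6 melanoma markers to 583 and 643, 430 to 1653, and 2966 and 680 CPM. Markers of T and NK cells, B cells, dendritic cells, and fibroblasts or endothelium summed to at most 41.9, 29.8, 30.6 and 7.65 CPM in any mouse. Apart from I.P. mouse 1, whose label number lies next to those of the S.C. mice, the order of the label numbers and the treatment cannot be told apart. Following the criterion of the study, a gene was called upregulated or downregulated where it changed 2-fold or more and the edgeR quasi-likelihood P, before adjustment, was under 0.05. No gene had an adjusted p under 0.05 in any of the 3 comparisons (0% of genes tested, 0 members). An unadjusted P under 0.05 was found for 632 genes (5.41% of those tested) in S.C. against DMSO mice. The same held for 418 genes (3.43%) in I.P. against DMSO and 1049 genes (8.59%) in S.C. against I.P. mice. Other tools gave other numbers, with 107, 19 and 234 genes by DESeq2 and 179, 10 and 265 by the edgeR likelihood ratio test, all at an adjusted p under 0.05.

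The 4 members upregulated in TAMs of S.C. mice were Il1a, Il1b, Il18bp and Nlrp3, and the windows around their transcription starts are shown because these genes rose together there. Each window holds 300 bases of the GRCm38.p6 assembly from RefSeq, 5′ to 3′ on the strand of the gene and around its first transcribed base, and capitals mark motif letters.
Il1a, chr2:129309923-129310222, minus strand: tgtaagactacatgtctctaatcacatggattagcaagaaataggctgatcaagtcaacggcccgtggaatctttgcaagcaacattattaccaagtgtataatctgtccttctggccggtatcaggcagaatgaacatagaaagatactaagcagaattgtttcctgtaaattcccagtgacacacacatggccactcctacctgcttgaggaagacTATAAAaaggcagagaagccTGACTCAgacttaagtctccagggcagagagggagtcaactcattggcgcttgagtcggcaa
Il1b, chr2:129371090-129371389, minus strand: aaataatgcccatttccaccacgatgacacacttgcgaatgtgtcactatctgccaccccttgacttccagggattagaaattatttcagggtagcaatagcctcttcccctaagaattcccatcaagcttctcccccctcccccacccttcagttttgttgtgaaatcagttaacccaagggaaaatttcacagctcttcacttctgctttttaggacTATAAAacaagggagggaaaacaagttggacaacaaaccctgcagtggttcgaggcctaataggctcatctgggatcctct
Il18bp, chr7:102018183-102018482, minus strand: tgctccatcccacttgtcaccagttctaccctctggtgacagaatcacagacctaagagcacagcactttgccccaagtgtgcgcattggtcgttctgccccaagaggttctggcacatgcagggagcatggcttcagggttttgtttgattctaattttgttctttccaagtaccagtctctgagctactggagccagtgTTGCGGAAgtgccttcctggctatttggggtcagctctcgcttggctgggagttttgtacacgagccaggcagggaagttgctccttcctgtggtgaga
Nlrp3, chr11:59541319-59541618, plus strand: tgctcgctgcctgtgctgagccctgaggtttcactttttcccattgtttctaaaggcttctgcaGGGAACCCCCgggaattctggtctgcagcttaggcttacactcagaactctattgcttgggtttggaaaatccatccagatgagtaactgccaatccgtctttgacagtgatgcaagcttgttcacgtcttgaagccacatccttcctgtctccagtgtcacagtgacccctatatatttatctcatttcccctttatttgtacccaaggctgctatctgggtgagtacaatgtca
The motifs searched were the kB consensus bound by NF-κB, TGANTCA (AP-1), GAAANNGAA (an IRF type) and TTGCNNAA (a C/EBP type), on both strands, and TATAAA (the TATA box) on the strand of the gene. No motif overlapped another in the 4 windows. The Il1a window held TATAAA from -32 to -27 and an AP-1 match from -12 to -6, where 0 is the first transcribed base. The Il1b window held TATAAA from -31 to -26 and none of the other letters. The Il18bp window held 1 C/EBP match from -49 to -42, and the Nlrp3 window shown, 1 of 2 for that gene, held 1 kB match from -186 to -177, while the other Nlrp3 window held no match. Matches were not limited to upregulated members, since each of the 2 overlapping windows of Casp4, which was not called, held 3 kB matches. Among all 32851 windows of the table, 8.5% held the kB consensus, 7.8% AP-1, 8.6% IRF, 10.8% C/EBP and 8.3% TATAAA. RefSeq windows were matched for 9 of the 10 members, all but Gsdmd. A match is a stretch of letters and says nothing of binding in these cells.

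The ligand Il1b (chr2:129364570-129371139, minus strand, with coordinates here and below from GENCODE vM21 on GRCm38) was the member with the widest range. It stood at 6.92 and 8.96 CPM in the DMSO mice, from 102 and 156 counts. In I.P. mice 1 to 4 it stood at 228, 5.05, 7.73 and 0.992 CPM. The S.C. mice had 252 and 381 CPM. Both S.C. mice and I.P. mouse 1 thus lay far above the other 5 mice, and I.P. mouse 4, with 17 counts (95% Poisson interval 9.90 to 27.2, counting error only), lay below both DMSO mice. Il1b was upregulated in S.C. against DMSO mice, with a log2 fold change of 5.29 ± 0.43 (SE, n = 2 against 2, edgeR adjusted p = 0.151), the second smallest P of 11680 genes. It remained between 4.92 and 5.55 when any 1 mouse was left out. With all 3 groups in 1 fit the log2 fold change was 5.31, but the edgeR adjusted p was 0.57. In I.P. against DMSO mice it was 2.90 ± 1.90 (n = 4 against 2, edgeR adjusted p = 0.98), and -0.79 without I.P. mouse 1. Between S.C. and I.P. mice it was 2.39 ± 1.57 (edgeR adjusted p = 0.76), outside the criterion, but it met the criterion when I.P. mouse 1 was left out (6.10). Exons of Il1b share 25 bp with Il1bos on the opposite strand, which was not among the counted genes.

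The ligand Il1a (chr2:129299610-129309972, minus strand), which lies beside Il1b on the same strand, was higher in both treatments by a smaller amount. The DMSO mice had 58.2 and 27.2 CPM. I.P. mice 1 to 4 had 119, 75.5, 57.5 and 124 CPM. The S.C. mice had 112 and 257 CPM. The S.C. values lay above both DMSO values, whereas I.P. mouse 3 lay just under DMSO mouse 1. Il1a was upregulated in S.C. against DMSO mice, with a log2 fold change of 2.09 ± 0.58 (SE, edgeR adjusted p = 0.747). It was 2.73 without DMSO mouse 1 and 1.34 without S.C. mouse 2, and still called. After I.P. injection it was upregulated by 1.13 ± 0.42 (edgeR adjusted p = 0.98). This I.P. value was 1.79 without DMSO mouse 1, and the call was lost without DMSO mouse 2 (0.69) or without I.P. mouse 4 (0.97). Between the S.C. and I.P. groups the difference was 0.97 ± 0.42 (edgeR adjusted p = 0.573), under 2-fold, and it met the criterion without I.P. mouse 1 (1.11), I.P. mouse 4 (1.13) or S.C. mouse 1 (1.45), but was 0.25 without S.C. mouse 2. In contrast to Il1b, I.P. mouse 1 did not stand apart for Il1a. Exons of Il1a overlap those of Gm14023 on the opposite strand over 222 bp, and whether counting used the strand is not given in the sources used here.

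The third ligand, Il18 (chr9:50554827-50581840, plus strand), did not follow the other ligands. It was at 29.0 and 29.6 CPM in the DMSO mice, 19.1, 31.6, 41.3 and 14.6 CPM in I.P. mice 1 to 4, and 18.7 and 23.5 CPM in the S.C. mice. Both S.C. mice lay below both DMSO mice, while the I.P. mice spread to either side of them. The log2 fold change was -0.50 ± 0.39 in S.C. mice (edgeR adjusted p = 1) and -0.14 ± 0.41 in I.P. mice (edgeR adjusted p = 0.987).

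**Figure D1:**
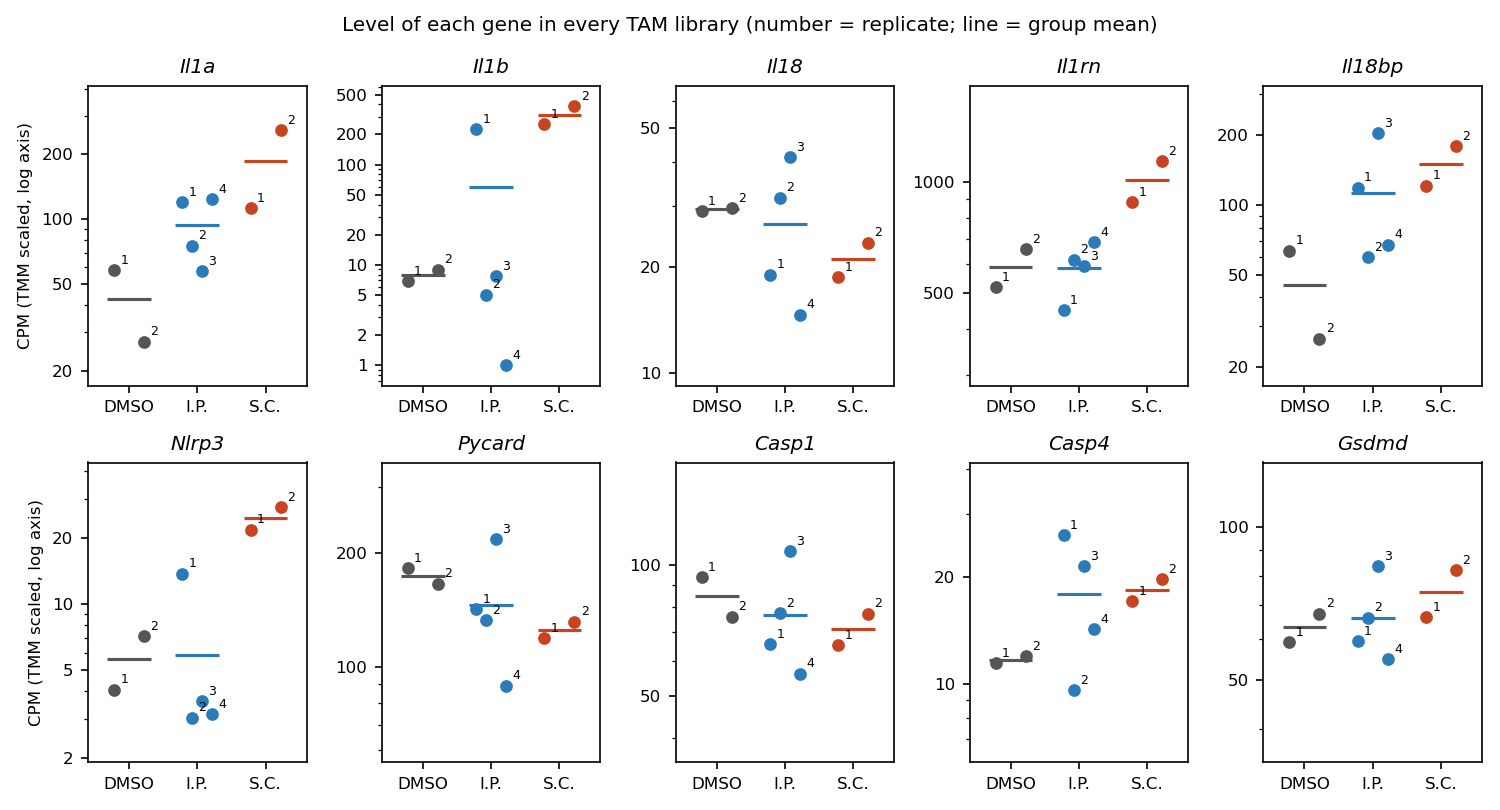
TMM-scaled CPM (log axis) of the 10 genes in each TAM library, by treatment group, with the replicate number beside each point and a line at the group mean. Il1b and Nlrp3 were high in both S.C. mice and in I.P. mouse 1, while the values of Casp1 and Gsdmd overlapped between all 3 groups.

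The antagonist Il1rn (chr2:24336853-24351494, plus strand) had the highest level per kb of transcript of the 10 genes in every group. Its CPM were 519.9 and 658 in the DMSO mice, 449, 617, 593 and 687 in I.P. mice 1 to 4, and 883 and 1136 in the S.C. mice. Both S.C. mice exceeded the other 6 mice, and I.P. mouse 1, high for Il1b, was the lowest mouse for Il1rn. The log2 fold change was 0.75 ± 0.32 in S.C. against DMSO mice (edgeR adjusted p = 0.938), which did not meet the criterion. It was -0.01 ± 0.25 in I.P. against DMSO mice (edgeR adjusted p = 0.997). In S.C. against I.P. mice it was 0.78 ± 0.25 (edgeR adjusted p = 0.428), which stayed under 2-fold.

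Il18bp (chr7:102014885-102018690, minus strand), the other antagonist, had 63.7 and 26.6 CPM in the DMSO mice. I.P. mice 1 to 4 had 119, 59.9, 204 and 67.6 CPM. The S.C. mice had 121 and 180 CPM. The S.C. mice lay above both DMSO mice, and the I.P. mice lay above DMSO mouse 1 in 3 of 4. Il18bp was upregulated in S.C. against DMSO mice, with a log2 fold change of 1.72 ± 0.51 (SE, edgeR adjusted p = 0.747), which was 2.47 without DMSO mouse 1 and not called without DMSO mouse 2 (1.21). After I.P. injection Il18bp was upregulated by 1.31 ± 0.57 (edgeR adjusted p = 0.98). It was 2.08 without DMSO mouse 1, and the call was lost without DMSO mouse 2 (0.82), I.P. mouse 1 (1.30) or I.P. mouse 3 (0.85). It was also lost with scaling by library size alone (1.24). Between S.C. and I.P. mice the difference was 0.42 ± 0.49 (edgeR adjusted p = 0.873). Il18bp shares 80 bp of exons with Numa1 on the opposite strand, so part of its counts may come from that gene if counting ignored the strand.

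Ligand and antagonist were also set against each other within each library, where the scaling cancels. The ratios are of CPM and were not divided by transcript length (2474 bp for Il1rn and 1356 bp for Il1b in the lengths used below). They therefore compare mice and do not give numbers of transcripts. The DMSO mice had 73.8 and 72.4 times as much Il1rn as Il1b, by CPM with a prior count of 2. I.P. mice 1 to 4 had 1.97, 119, 75.5 and 615 times as much, and the S.C. mice 3.50 and 2.98 times. By this measure I.P. mouse 1 and the S.C. mice had less Il1rn per Il1b than the other mice. I.P. mice 2 to 4 had at least as much as the DMSO mice. The log2 ratio of Il1b to Il1rn was 4.50 higher in S.C. than in DMSO mice (exact two-sided permutation p = 0.333, the smallest that 2 against 2 allows). In I.P. mice it was 0.35 higher (exact permutation p = 0.8, smallest possible 0.133), and -1.27 without I.P. mouse 1. For Il18bp over Il18 the values were 2.19 and 0.899 in the DMSO mice, 6.21, 1.89, 4.93 and 4.59 in I.P. mice 1 to 4, and 6.45 and 7.61 in the S.C. mice. All treated mice but I.P. mouse 2 lay above both DMSO mice. The log2 ratio of Il18 to Il18bp differed from DMSO by -2.32 in S.C. mice (exact permutation p = 0.333) and by -1.52 in I.P. mice (exact permutation p = 0.267). These differences were -2.96 and -2.17 without DMSO mouse 1, and -1.68 and -0.88 without DMSO mouse 2. For Il1a, the other ligand that Il1rn opposes, the shift was smaller than for Il1b in S.C. mice. Il1rn per Il1a was 8.91 and 24.1 in the DMSO mice, 3.76, 8.16, 10.3 and 5.54 in I.P. mice 1 to 4, and 7.87 and 4.42 in the S.C. mice. S.C. mouse 1 lay close to DMSO mouse 1. The log2 ratio of Il1a to Il1rn differed from DMSO by 1.31 in S.C. mice (exact permutation p = 0.333) and by 1.18 in I.P. mice (exact permutation p = 0.267). Without DMSO mouse 1 these were 2.03 and 1.90, without DMSO mouse 2 they were 0.60 and 0.46, and the S.C. value was 0.90 without S.C. mouse 2.

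**Figure D2:**
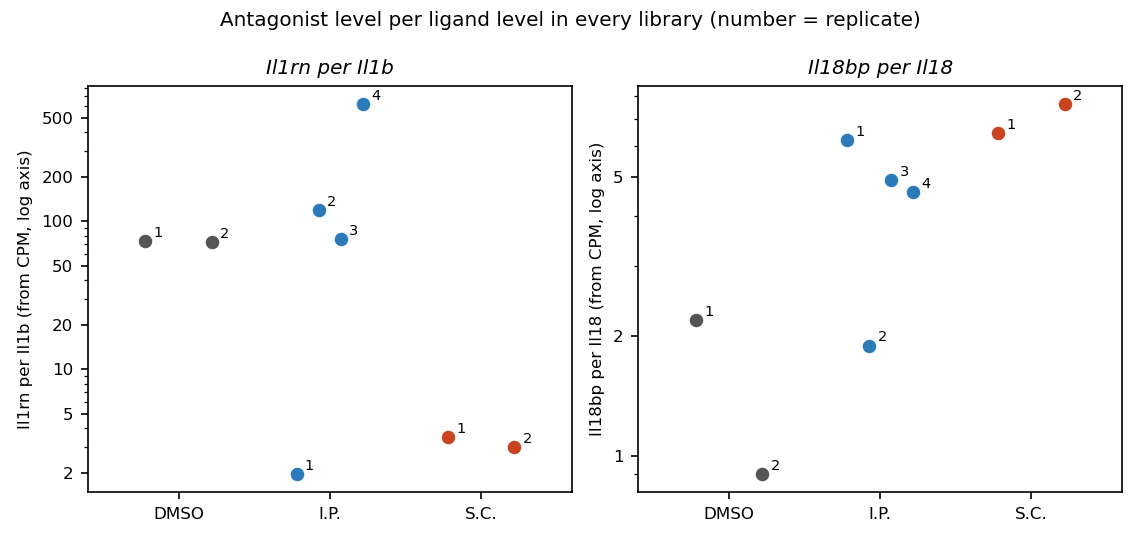
Il1rn level per Il1b level (left) and Il18bp level per Il18 level (right) in each library, on log axes, with the replicate number beside each point. Levels are CPM not divided by transcript length. On the left I.P. mouse 1, at 1.97, and the S.C. mice, at 3.50 and 2.98, lie apart from the 5 other mice, and on the right the S.C. mice, at 6.45 and 7.61, are the highest.

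The sensor Nlrp3 (chr11:59541568-59566956, plus strand) was high in the same 3 mice as Il1b. The DMSO mice had 4.07 and 7.12 CPM, from 60 and 124 counts. I.P. mice 1 to 4 had 13.7, 3.04, 3.61 and 3.15 CPM. The S.C. mice had 21.7 and 27.5 CPM. Both S.C. mice lay above all other mice, I.P. mouse 1 came next, and I.P. mice 2 to 4 lay below both DMSO mice. Nlrp3 was upregulated in S.C. against DMSO mice, with a log2 fold change of 2.11 ± 0.55 (SE, edgeR adjusted p = 0.747), a call that was lost without DMSO mouse 1 (1.75). For the I.P. mice the log2 fold change was 0.05 ± 0.69 (edgeR adjusted p = 0.994), and leaving out I.P. mouse 1 turned it to -0.78. Nlrp3 was the only member upregulated in S.C. against I.P. mice, by 2.07 ± 0.67 (edgeR adjusted p = 0.428), and by 2.91 without I.P. mouse 1.

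The adaptor Pycard (chr7:127989708-127993867, minus strand) was not called in any comparison. Its levels were 183 and 166 CPM in the DMSO mice, 142, 133, 218 and 89.2 CPM in I.P. mice 1 to 4, and 119 and 132 CPM in the S.C. mice. Both S.C. mice lay below both DMSO mice, and the I.P. mice covered the range of all the others. Exons of Pycard overlap those of Gm45205 on the opposite strand over 485 bp. Gm45205 was not among the counted genes, so part of the Pycard counts may come from it if counting ignored the strand. The log2 fold change was -0.50 ± 0.29 in S.C. mice (edgeR adjusted p = 1) and -0.27 ± 0.33 in I.P. mice (edgeR adjusted p = 0.98).

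The protease Casp1 (chr9:5298517-5307265, plus strand) had 93.8 and 76.0 CPM in the DMSO mice, 65.7, 77.4, 107 and 56.1 CPM in I.P. mice 1 to 4, and 65.3 and 77.2 CPM in the S.C. mice. The groups overlapped. Log2 fold changes were -0.28 ± 0.32 in S.C. mice (edgeR adjusted p = 1) and -0.15 ± 0.29 in I.P. mice (edgeR adjusted p = 0.98). Its neighbor Casp4 (chr9:5308828-5336783, plus strand) had 11.4 and 11.9 CPM in the DMSO mice, 26.1, 9.61, 21.3 and 14.2 CPM in I.P. mice 1 to 4, and 17.1 and 19.7 CPM in the S.C. mice. Casp4 was above both DMSO values in both S.C. mice and in 3 of 4 mice given I.P. injections. Its log2 fold changes were 0.63 ± 0.46 in S.C. mice (edgeR adjusted p = 1) and 0.60 ± 0.40 in I.P. mice (edgeR adjusted p = 0.98), and neither passed the test. The pore-forming effector Gsdmd (chr15:75862327-75867408, plus strand) had 59.2 and 67.4 CPM in the DMSO mice, 59.5, 66.2, 83.7 and 54.9 CPM in I.P. mice 1 to 4, and 66.3 and 82.2 CPM in the S.C. mice. These ranges overlapped, with log2 fold changes of 0.20 ± 0.32 in S.C. mice (edgeR adjusted p = 1) and 0.06 ± 0.25 in I.P. mice (edgeR adjusted p = 0.99).

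**Figure D3:**
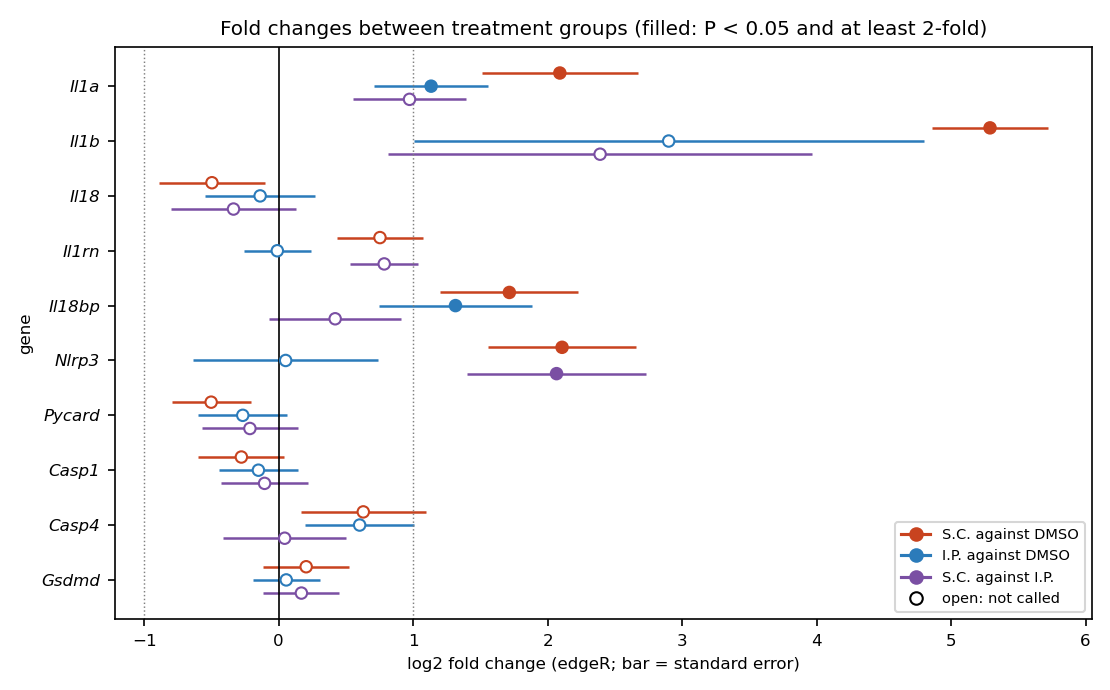
Log2 fold change (edgeR, bars of 1 standard error) of each gene in S.C. against DMSO, I.P. against DMSO and S.C. against I.P. mice, with filled points where P was under 0.05 and the change at least 2-fold. Filled points are Il1a, Il1b, Il18bp and Nlrp3 for S.C. against DMSO, Il1a and Il18bp for I.P. against DMSO, and Nlrp3 for S.C. against I.P. mice, and the first 2 comparisons share both DMSO mice.

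Counted together, 4 of 10 members were upregulated in S.C. against DMSO mice, beside 2.29% of all genes tested, and 0 were downregulated, beside 2.77%. The members were chosen with earlier results of these data known, so these counts are a description and not a test of the list. For 6 members (Il1a, Il1b, Il1rn, Il18bp, Nlrp3 and Casp4) both S.C. mice lay above both DMSO mice, beside 17.1% of all genes, and for 2 (Il18 and Pycard) they lay below, beside 17.2%. The median log2 fold change of the members was 0.69, and that of all genes 0.02. In I.P. against DMSO mice 2 of 10 were upregulated, beside 1.53% of all genes, and 0 downregulated, beside 0.468%. No member had all 4 I.P. mice above or below both DMSO mice, beside 7.32% and 6.83% of all genes, and the median was 0.05 against 0.02. In S.C. against I.P. mice 1 of 10 was upregulated, beside 2.41% of all genes, and 0 were downregulated, beside 4.64%. There 3 members (Il1b, Il1rn and Nlrp3) had both S.C. mice above all I.P. mice, beside 8.05% of all genes, and 0 had them below, beside 10.5%. The I.P. count rested on single mice, since it was 1 without I.P. mouse 1, 3 or 4. Without DMSO mouse 2 both of its log2 fold changes were under 2-fold (0.69 for Il1a and 0.82 for Il18bp). The S.C. against DMSO count also rested on single DMSO mice, through the calls of Nlrp3 and Il18bp described above. The log2 fold change was 1.75 for Nlrp3 without DMSO mouse 1 and 1.21 for Il18bp without DMSO mouse 2. The S.C. against I.P. count was 3 without I.P. mouse 1, with Il1a and Il1b added to Nlrp3, and 2 without I.P. mouse 4 or S.C. mouse 1.

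**Figure D4:**
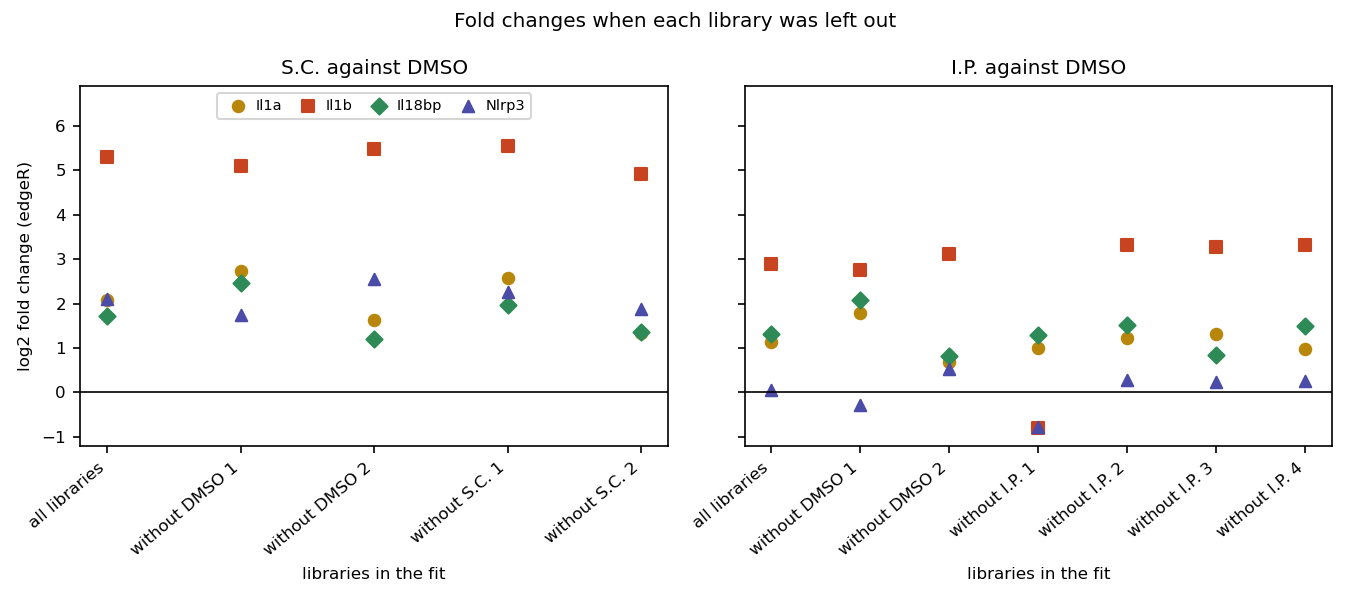
Log2 fold change (edgeR) of Il1a, Il1b, Il18bp and Nlrp3 with all libraries and with each library left out in turn, in S.C. against DMSO (left) and I.P. against DMSO mice (right). All S.C. values lie above 0, and in the I.P. comparison Il1b and Nlrp3 fall to -0.79 and -0.78 without I.P. mouse 1.

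Neutrophils and monocytes are cell types that can express Il1b, and their markers are given here mouse by mouse. Of the 11 neutrophil markers, 10 in each S.C. mouse lay above both DMSO mice and none below. In I.P. mouse 1, 8 lay above both DMSO mice and 1 below, Mmp8, at 24.2 CPM against 60.5 and 58.5 CPM. The list summed to 186 CPM in I.P. mouse 1 as in DMSO mouse 1. Most of both sums came from Cxcr2, Csf3r and Mmp8, at 77.4, 48.0 and 24.2 CPM in I.P. mouse 1. In DMSO mouse 1 these were at 63.7, 55.5 and 60.5 CPM. S100a8 was at 2.31 and 6.15 CPM in the DMSO mice, 21.2, 2.31, 8.02 and 1.63 CPM in I.P. mice 1 to 4, and 6.46 and 64.8 CPM in the S.C. mice. Granule genes of neutrophils, Ltf, Ngp and Camp, stood at 28.3, 60.3 and 13.9 CPM in S.C. mouse 2, 1.62, 4.44 and 1.14 CPM in S.C. mouse 1, and 0.893, 2.17 and 0.383 CPM in I.P. mouse 1. The DMSO mice had 0.339, 0.746 and 0.339 CPM in mouse 1 and 0, 0.115 and 0 CPM in mouse 2. The sum of the 6 monocyte markers in I.P. mouse 1, the highest of all, was mostly Chi3l3, at 290 of 325 CPM. Without Chi3l3 the sum was 35.7 CPM there, below the 69.8 and 90.5 CPM of the DMSO mice. Of the 6 monocyte markers, 4 (Ly6c2, Plac8, Vcan and Chi3l3) lay above both DMSO mice in I.P. mouse 1. Only 1 lay below, Ccr2, at 12.7 against 59.9 and 79.2 CPM. In S.C. mice 1 and 2, 3 and 4 of the 6 lay above both DMSO mice, and 1 lay below in each. Without Chi3l3 the S.C. mice had 97.7 and 127 CPM. The Gr-1− gate of the sort leaves out neutrophils and Gr-1+ monocytes. All 11 neutrophil markers had counts in the S.C. mice, I.P. mouse 1 and DMSO mouse 1, and 2 to 5 of them were at 0 in each of the other 4 mice. The part of these cells in the Il1b, Il1a and Nlrp3 values was not tested, and in sorted bulk samples more cells of a type and more RNA per cell cannot be told apart.

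To compare the genes with one another, CPM were divided by the length of the longest transcript paired with a RefSeq mRNA. In the DMSO mice Il1rn led with 238 CPM per kb, and Casp1 (56.7), Pycard (46.0), Gsdmd (35.4), Il18 (34.1), Il18bp (28.3), Il1a (21.6), Casp4 (8.14), Il1b (5.86) and Nlrp3 (1.39) followed. From Gsdmd down to Il1a the ranges of neighbors in that order overlapped between the DMSO mice, and those of the other neighbors were apart. In the I.P. mice Il1rn (237 ± 40.4, SD, n = 4) again led and Nlrp3 (1.46 ± 1.30) again was last, while Il1b ran from 0.732 to 168 CPM per kb. In the S.C. mice Il1rn (408) was followed by Il1b (233), then by Il18bp (94.5) and Il1a (93.5), which overlapped, and by Casp1 (47.6) and Gsdmd (41.4), which also overlapped, and Pycard (33.0), Il18 (24.6), Casp4 (12.8) and Nlrp3 (6.12). Il1b thus stood ninth of 10 in DMSO mice and second in S.C. mice, while Nlrp3 was the lowest in both on these lengths. Places in the order depend on the length used. For 7 members, all but Il1a, Il1b and Casp1, GENCODE also lists shorter coding transcripts, some of them incomplete, and the shortest measures 676 bp for Nlrp3 against the 4021 bp used and 493 bp for Pycard against 3800 bp.

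Of 59 other genes of the pathway listed by role, 58 were in the table and 46 passed the filter for S.C. against DMSO mice. Of these, 2 were upregulated and 1 downregulated, beside the 2.29% and 2.77% of all genes given above. Il1r2, the decoy receptor that binds IL-1 without signaling, was at 2.99 and 1.95 CPM in the DMSO mice, 15.5, 0.547, 2.88 and 2.86 CPM in I.P. mice 1 to 4, and 32.2 and 14.9 CPM in the S.C. mice. The S.C. mice and I.P. mouse 1 again were the 3 highest. Its log2 fold change in S.C. mice was 3.22 ± 0.67 (edgeR adjusted p = 0.747). Tnfaip3, which encodes the NF-κB inhibitor A20, was at 65.6 and 35.6 CPM in the DMSO mice, 174, 49.8, 57.5 and 130 CPM in I.P. mice 1 to 4, and 120 and 568 CPM in the S.C. mice. Thus I.P. mice 1 and 4 exceeded S.C. mouse 1. Tnfaip3 had a log2 fold change in S.C. against DMSO mice of 2.75 ± 0.80 (edgeR adjusted p = 0.747). Nlrc3, a member of the NOD-like receptor family described as a negative regulator, fell from 14.4 and 13.3 CPM in DMSO mice to 0.0673 and 1.89 CPM in S.C. mice, from 1 and 26 counts, with a log2 fold change of -3.84 ± 1.36 (edgeR adjusted p = 0.846). The I.P. mice had 14.2 to 23.9 CPM of Nlrc3. Between S.C. and I.P. mice Tnfaip3 was upregulated (1.75 ± 0.65, edgeR adjusted p = 0.497) and Nlrc3 downregulated (-4.21 ± 1.02, edgeR adjusted p = 0.288). The kinase gene Irak2, next by P against DMSO, had 47.0 and 40.5 against 62.3 and 121 CPM (log2 fold change 1.04 ± 0.42).

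By role, 1 of 5 tested receptor genes was upregulated in S.C. mice, as was 1 of 11 tested regulators and triggers of NLRP3, with 1 downregulated. Il1f9, the 1 other ligand gene tested, was not called, and none of the 12 signaling genes below the receptors, the 9 other sensors or the 8 other death proteases, gasdermins and rupture genes was called. The signaling receptor gene Il1r1 had at most 34 counts in any mouse, and the IL-36 genes Il1f5, Il1f6 and Il1f8 and the gene Il1f10 had no count in any mouse. In I.P. against DMSO mice 49 of these genes were tested and 0 were called, beside 1.53% and 0.468% of all genes. The 4 with the smallest P there were Irak2 (log2 fold change 0.70), the sensor gene Nlrp1a (-1.04), Tnfaip3 (1.01) and Brcc3 (-0.45), which encodes a deubiquitinase that acts on NLRP3.

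For each member, the genes whose log2 CPM ran most parallel to it over the 8 libraries were taken from the 9318 genes that averaged 5 CPM or more. Since each is the highest of many and the libraries share 3 treatments, these are descriptions. Closest to Nlrp3 were Osm (Pearson r = 0.969), which encodes the cytokine oncostatin M, the phosphatase gene Dusp5 (0.962) and Trib1 (0.959). Osm stood at 30.5 and 48.5 CPM in the DMSO mice, 109, 35.5, 32.3 and 34.6 in I.P. mice 1 to 4, and 106 and 186 in the S.C. mice, so the same 3 mice were the highest. Closest to Il1b were Praf2 (0.982), 2310033P09Rik (0.975) and Taf7 (0.968). Taf7, a gene of the general transcription machinery, had 10.9 and 9.19 CPM in the DMSO mice, 17.9, 9.73, 11.2 and 8.81 in I.P. mice 1 to 4, and 20.3 and 21.7 in the S.C. mice, a much narrower range than Il1b. For Il18bp they were Bcl2a1d (0.951), an apoptosis inhibitor gene whose counts are uncertain because of near-identical copies, Gngt2 (0.924) and Pla2g16 (0.92). Among the other ligands and antagonists, Il1a had Ppcdc (0.975), Adipor1 (0.968) and Amz1 (0.957), Il1rn had Jmjd4 (0.978), Mex3c (0.967) and Synj2bp (0.947), and Il18 had Tsen15 (0.958), Fam49b (0.952) and Rbmxl1 (0.929). Pycard and Casp1 shared Ptgs1 (0.894 and 0.883), which encodes cyclooxygenase-1, beside Rpp14 (0.917) and Dppa3 (0.89) for Pycard and Ell2 (0.899) and Ptpn22 (0.887) for Casp1. Casp4 had Ms4a8a (0.962), the macrophage perforin gene Mpeg1 (0.956) and Fam46a (0.949), and Gsdmd had Zfp955b (0.968), Atp1b3 (0.946) and Enkd1 (0.918).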

How the data were processed

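RNA-seq counts of TAMs from 8 mice were used, with mice grouped by the treatment in their labels. The authors deposited whole-number counts per gene symbol without normalization. Per the methods of the study, reads were aligned to mm10 with bowtie2 and counted with RSEM, while the submitters' processing notes name TopHat2 and edgeR. Whether strand was used is not given in the sources used here.

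The analysis used edgeR 4.0.16 and DESeq2 1.42.0 under R 4.3.3. For each pair of groups, genes passing filterByExpr (minimum count 10, minimum total 15) were scaled by TMM and tested by edgeR's quasi-likelihood method (two-sided), with Benjamini-Hochberg adjustment over all genes tested. The standard error is the log2 fold change divided by the square root of F. CPM use TMM factors over all 8 libraries, and log2 CPM a prior count of 2. Depth was 14127506 to 17577466 counts, and floors and intervals cover counting error only. The script was tested on simulated data. Replicates are separate mice, and no pair of libraries within a group agreed within sampling noise. Pairs across groups were not compared.

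The members and gene lists were chosen with earlier results of these data known. Named besides the members were pathway genes called against DMSO, or the 4 with the smallest P where fewer than 4 were called, and for each member the genes most correlated with it. Which marker values to print, and the alternatives for the Il1a to Il1rn ratio, were chosen after the values were seen. Alternatives were DESeq2 and edgeR's likelihood ratio test, RLE or library-size scaling, no gene filter or one of 1 CPM in 2 samples, 1 fit of all 3 groups, a replicate block and leaving out each mouse. Of the symbols, 93.0% were found in GENCODE vM21. Figures were drawn with matplotlib 3.10.9.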

Additional observations from a re-analysis of the deposited data

Results flagged for a closer look

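Nlrp3 in the I.P. mice had a sample far from the others. On the log2 CPM scale the gap between I.P. mouse 1 (13.7 CPM) and the next mouse (3.61 CPM) was 0.887 of the range of the 4 mice, above Dixon's critical value at the 95% level. The test was made on 13 sets of 4 values, the 10 genes and 3 ratios, and chance flags about 1 in 20 unselected sets. These sets were not unselected. The genes were chosen with earlier results of these data known, and I.P. mouse 1 was set apart in advance. The flag is therefore a description and not a test of that mouse. Il1b did not pass it (0.633), since I.P. mouse 4 lay far below the middle mice.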

How the results depend on the processing

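With 2 mice in each of 2 groups, a count of calls rests on few mice. Fits that left out an S.C. mouse compared 1 mouse with the others and assumed that it varied like them. Among the alternative values of members' fold changes, 377 kept direction and call, 19 changed direction, 9 lost the call and 5 gained it. DESeq2 gave no P for Il1b in I.P. against DMSO mice (log2 fold change 2.93) or in S.C. against I.P. mice (2.40). Both were counted among those kept, by direction alone.

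In S.C. against DMSO mice, counts of genes with an adjusted p under 0.05 were 10 with no gene filter, 179 with the likelihood ratio test, 107 with DESeq2, 4 with all 3 groups in 1 fit and 0 to 2407 when 1 mouse was left out. Members with an adjusted p under 0.05 numbered 1 with no filter (Il1b) and 2 with the likelihood ratio test and with DESeq2 (Il1a and Il1b), and 0 to 4 when 1 mouse was left out. Genes called higher ranged from 85 to 1322 and genes called lower from 28 to 2110 when 1 mouse was left out, and 547 were called lower with all 3 groups in 1 fit. In I.P. against DMSO mice, genes called higher numbered 117 with all 3 groups in 1 fit and 76 to 282 when 1 mouse was left out, and genes called lower 114 with no filter and 40 to 109 when 1 mouse was left out. Genes with an adjusted p under 0.05 were 10 with the likelihood ratio test and 19 with DESeq2. Members called higher numbered 1 with library size alone and 0 to 2 when 1 mouse was left out. In S.C. against I.P. mice, genes called higher were 507 with no filter and 194 to 727 when 1 mouse was left out, genes called lower 407 to 1426, and members called higher 1 to 3. Genes with an adjusted p under 0.05 there were 265 with the likelihood ratio test, 234 with DESeq2, 2 with all 3 groups in 1 fit and 0 to 138 when 1 mouse was left out. The cause was not tested.

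Reversals of I.P. against DMSO log2 fold changes occurred with library size alone for Nlrp3 (-0.055) and Gsdmd (-0.014). When 1 mouse was left out the ranges were -0.79 to 3.31 for Il1b, -0.17 to 0.17 for Il1rn, -0.43 to 0.064 for Il18, -0.78 to 0.52 for Nlrp3, -0.36 to 0.0099 for Casp1 and -0.082 to 0.16 for Gsdmd. In S.C. against I.P. mice Casp4 reversed with library size alone (-0.043), and the ranges were -0.39 to 0.020 for Pycard, -0.24 to 0.073 for Casp1 and -0.16 to 0.29 for Casp4. The I.P. difference in the log2 ratio of Il1b to Il1rn ranged from -1.27 to 1.49. That of Il18 to Il18bp ranged from -2.96 to -1.68 in S.C. mice and from -2.17 to -0.88 in I.P. mice. Scaling by library size alone moved the median of all genes from 0.02 to -0.13 in S.C. mice. The cause was not tested.

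Deviations of same-numbered mice from their group means had correlations of -0.187 to 0.169. In a group of 2 the deviations of mice 1 and 2 mirror each other, so S.C. against DMSO mice gave a single value, -0.185. The check therefore cannot decide on pairing. The study names no pairs among these mice, and the numbers were not taken as pairs. With the replicate block, 19 genes and 1 member had an adjusted p under 0.05 in S.C. against DMSO mice, and with the numbers crossed, chosen after seeing the data, 2 genes and 1 member. The block gave 148 genes called lower and a Gsdmd fold change of -0.021 in I.P. against DMSO mice, and 189 genes called lower and 7 with an adjusted p under 0.05 in S.C. against I.P. mice, where Il1b passed the criterion (3.11) and Nlrp3 (1.88) did not.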
